A study of Mus musculus with 10 samples.

Results

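Described here are 9 genes measured in regulatory T cells (Tregs) sorted from melanoma-bearing mice: Sik1, Crem, Per1, Pde4b, Pde4d, Ramp3, Bhlhe40, Vps37b and Fam110a. Most of them belong to the transcriptional response to cyclic AMP (cAMP) or to its control, and Bhlhe40, Vps37b and Fam110a are described with them. They were found by matching the Ensembl identifiers of the count table to these symbols, and they make up 9 of 21556 genes in it. All 9 passed the filter on low counts, which kept 13920 genes. The set was chosen by results of these same libraries, differences between tumor and lymph node (LN) and between genotypes, so those differences of the 9 genes are given as a description and not as a test.

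The study asked what MHC class II (MHCII) on lymphatic vessels of a tumor does to the Tregs inside it. Tregs were sorted by red fluorescent protein (RFP) from the tumor or an LN of mice aged 10 weeks that had been injected with a lymphangiogenic mouse melanoma line. Tumor libraries came from 2 MHCII-deleted samples (Prox1CrePos, MHCIIΔProx-1) and 3 control samples (Prox1CreNeg, MHCIIfl/fl), and LN libraries likewise from 2 MHCII-deleted and 3 control samples. All 4 groups carry the floxed MHCII allele, and MHCII-deleted mice also carry Cre recombinase under Prox1, a gene of lymphatic endothelium that some other cell types also use. The deleted gene belongs to the lymphatic endothelium, and Tregs were sequenced, so these libraries do not check the deletion. What drives RFP, which LN was taken and how many mice went into a library are not given in the sources used here, and the labels describe tissue digestion for tumors only.

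In cAMP signaling, receptors coupled to the G protein Gs switch on adenylyl cyclases, and the cAMP they make activates protein kinase A. Protein kinase A phosphorylates CREB, and CREB with its CRTC coactivators switches on target genes such as Crem, Sik1 and Per1, several of which then damp the signal. Phosphodiesterases of the Pde4 family degrade cAMP. Tregs are known for a high content of cAMP, which they can pass to the T cells they suppress.

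Total counts ranged from 28539329 to 35736175 per library, and 3 counts, the most that a count of 0 leaves possible, correspond to 0.0839 to 0.105 CPM, the unit of library-scaled counts (TMM-normalised) used below. The members' raw counts ranged from 222 to 97983, so none is near that floor. Foxp3, Il2ra, Ctla4, Ikzf2, Tnfrsf18 and Cd4, the Treg markers, were detected in every group, with Foxp3 at a mean of 345.5 CPM in MHCII-deleted and 738 CPM in control tumor libraries and at 617 and 687 CPM in MHCII-deleted and control LN libraries. The tumor libraries of MHCII-deleted mice stood apart in content. Their summed level of 20 pan-T cell genes (19 of them detected) was 5860 to 7040 CPM, against 13800 to 14400 CPM in tumor libraries of control mice and 14700 to 15400 CPM over both groups of LN libraries. A summed level of 9 melanoma genes was 14200 to 17800 CPM in the MHCII-deleted tumor libraries, against 3560 to 7070 CPM in the control tumor libraries and 6.19 to 16.3 CPM over all LN libraries. Myeloid genes (10 genes) summed to 26.2 to 62 CPM over all 10 libraries. Stromal and endothelial genes (9 genes) summed to 353 to 885 CPM in MHCII-deleted tumor libraries, against 529 to 4220 CPM in control tumor libraries and 182 to 219 CPM in LN libraries. Genes of that list did not move together: Col1a1, a fibroblast collagen, averaged 120 CPM in MHCII-deleted and 808 CPM in control tumor libraries, whereas the lymphatic endothelial genes Lyve1 (43.0 CPM in MHCII-deleted, against 2.84 CPM in control), Flt4 (35.7 against 2.58 CPM) and Pdpn (12.1 against 5.69 CPM) and the endothelial gene Cdh5 (7.28 against 0.478 CPM) were higher in MHCII-deleted tumor libraries. Pecam1, also of the list, was lower there, at a mean of 66.7 CPM, against 91.0 CPM in control tumor libraries. In LN libraries Pecam1 averaged 204 CPM in MHCII-deleted and 202 CPM in control mice, nearly all of the list's sum. Col1a1 was at 0.677 CPM in MHCII-deleted and 2.17 CPM in control LN libraries. The LN sum is therefore no measure of stroma, and which cells gave the Pecam1 reads was not tested. The second MHCII-deleted tumor library also stood apart from its partner in genes with a very GC-rich stretch (1458 genes with a 100-base window of at least 85% GC): its index, their mean deviation on the log2 scale, was 1.26, against 0.33 in the other. None of the 9 members has such a window. In bulk libraries, fewer cells of a type and less RNA per cell cannot be told apart, and this holds for every level below. For that reason each member's deletion difference in tumor is given both per total RNA (TMM) and per pan-T cell counts.

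**Figure D1:**
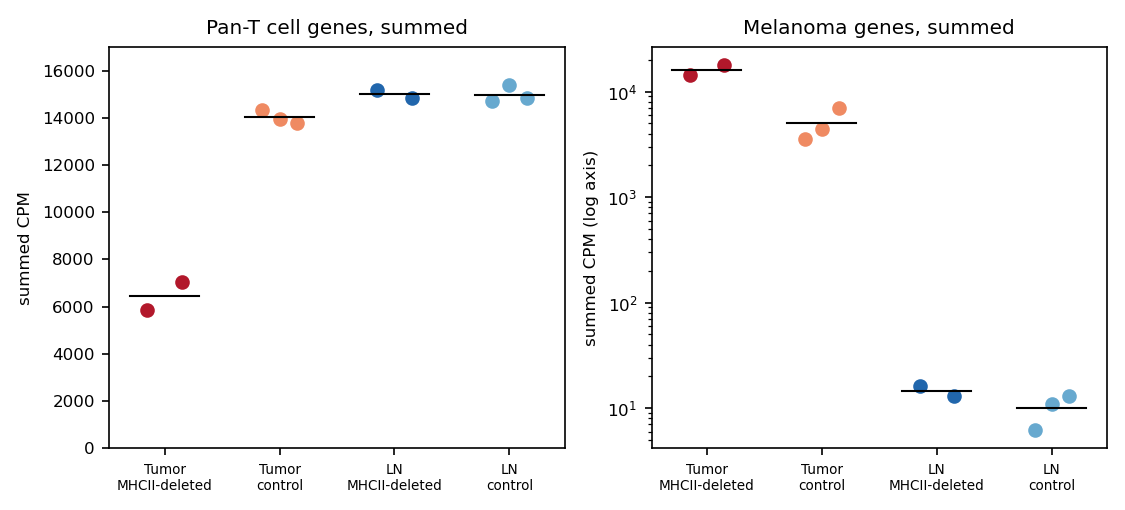
Summed CPM of 20 pan-T cell genes (left, linear axis) and 9 melanoma genes (right, log axis) in each library; points are libraries and lines are group means. Pan-T cell genes lie at 5860 to 7040 CPM in MHCII-deleted tumor libraries, below all others, and melanoma genes at 14200 to 17800 CPM, above all others.

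Crem (18:3266048-3337748, minus strand, GRCm38) encodes a CREB family member whose short ICER forms repress CREB targets. It stood at 490.5 and 489 CPM in MHCII-deleted tumor libraries, against 1034, 1177 and 965 CPM in control tumor libraries. LN libraries held 52.3 and 54.4 CPM in MHCII-deleted mice, against 56.4, 107 and 67.6 CPM in control mice. Both MHCII-deleted groups thus lay below their control group with no shared range, and the control LN libraries spread widely, with library 2 well above the other 2. Counting did not separate Crem isoforms, and 8.01% of its exon bases lie opposite Gm6225.

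Sik1 (17:31844250-31855804, minus strand) encodes salt-inducible kinase 1, which phosphorylates CRTC coactivators and keeps them out of the nucleus. Its level was 227 and 218 CPM in MHCII-deleted tumor libraries, against 319, 376 and 393 CPM in control tumor libraries. LN libraries gave 20.9 and 14.7 CPM in MHCII-deleted mice, against 10.8, 12.7 and 10.8 CPM in control mice. The direction of the deletion difference was opposite in the 2 tissues on this scale, with lower values in tumor and higher values in LN, and the groups did not overlap in either tissue.

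Per1 (11:69095217-69109960, plus strand) encodes a repressor of the circadian clock that CREB also induces. The MHCII-deleted tumor libraries had 51.4 and 40.6 CPM, against 76.5, 82.2 and 119 CPM in the control tumor libraries. In LN, the MHCII-deleted libraries had 19.9 and 20.2 CPM, against 18.0, 21.6 and 17.5 CPM in the control libraries. Tumor groups did not overlap, with control library 3 the highest, whereas the LN groups overlapped.

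The phosphodiesterases differed from each other. Pde4b (4:102087543-102607259, plus strand), which degrades cAMP in leukocytes, stood at 123 and 171 CPM in MHCII-deleted tumor libraries, against 254, 212 and 233 CPM in control tumor libraries. Its LN level was 144 and 152 CPM in MHCII-deleted mice, against 151, 128 and 133 CPM in control mice. The control tumor libraries lay above the rest, and the other 3 groups overlapped. Pde4d (13:108449948-109953461, plus strand) has the same activity. It measured 55.0 and 56.9 CPM in MHCII-deleted tumor libraries, against 87.6, 110 and 99.5 CPM in control tumor libraries. The LN values were 23.9 and 18.8 CPM in MHCII-deleted mice, against 14.9, 20.7 and 13.4 CPM in control mice. Unlike Pde4b, Pde4d had no tumor library as low as any LN library; its LN groups overlapped and its tumor groups did not.

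Ramp3 (11:6658521-6677475, plus strand) encodes a partner protein that turns the calcitonin receptor-like receptor into an adrenomedullin receptor, a route to cAMP. It had 75.2 and 76.1 CPM in MHCII-deleted tumor libraries, against 189, 180.5 and 205 CPM in control tumor libraries. LN levels were 9.01 and 7.14 CPM in MHCII-deleted mice, against 9.23, 12.0 and 9.36 CPM in control mice. The MHCII-deleted libraries lay below the control libraries in both tissues, by a wide gap in tumor and a narrow one in LN. Calcrl, the receptor that Ramp3 needs, averaged 21.7 ± 0.657 CPM (SD, n = 2) in MHCII-deleted and 29.2 ± 6.99 CPM (n = 3) in control tumor libraries and 35.7 ± 9.79 CPM (n = 2) in MHCII-deleted and 37.1 ± 7.06 CPM (n = 3) in control LN libraries, values that were looked up after the levels of Ramp3 were known.

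Bhlhe40 (6:108660629-108666925, plus strand) encodes a basic helix-loop-helix repressor that feeds back on the circadian clock and, in helper T cells, restrains Il10. Tumor levels were 1724 and 1773 CPM in MHCII-deleted libraries, against 2992, 2599 and 2804 CPM in control libraries. LN libraries had 114 and 147 CPM in MHCII-deleted mice, against 138, 137 and 134 CPM in control mice. The LN groups overlapped, since the 2 MHCII-deleted libraries fell on either side of the 3 control libraries, while the tumor groups did not.

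Vps37b (5:124004641-124032270, minus strand) encodes a subunit of ESCRT-I, which sorts ubiquitinated membrane proteins toward lysosomes. Its tumor level was 536 and 648 CPM in MHCII-deleted mice, against 1412, 1452 and 1397 CPM in control mice. In LN it was 90.7 and 77.3 CPM in MHCII-deleted mice, against 72.1, 83.0 and 74.1 CPM in control mice. Tumor groups were far apart and LN groups overlapped. Of its 2789 exon bases, 918 (32.9%) lie opposite exons of Hip1r. The strand setting of the counting is not given, so reads there may be mixed between the 2 genes or left out of both. Hip1r averaged 112 ± 1.15 CPM (SD, n = 2) in MHCII-deleted and 152 ± 26.1 CPM (SD, n = 3) in control tumor libraries, and 66.2 ± 6.22 CPM (SD, n = 2) in MHCII-deleted and 77.4 ± 9.32 CPM (SD, n = 3) in control LN libraries, a far smaller range than that of Vps37b.

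Fam110a (2:151969398-151980219, minus strand) encodes a centrosome-associated protein. It stood at 122 and 162 CPM in MHCII-deleted tumor libraries, against 446.5, 396 and 378 CPM in control tumor libraries. The LN libraries had 35.7 and 35.6 CPM in MHCII-deleted mice, against 39.4, 37.4 and 38.4 CPM in control mice. Replicates were tight in LN, where the MHCII-deleted libraries lay just below all control libraries, and the tumor groups were far apart.

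**Figure D2:**
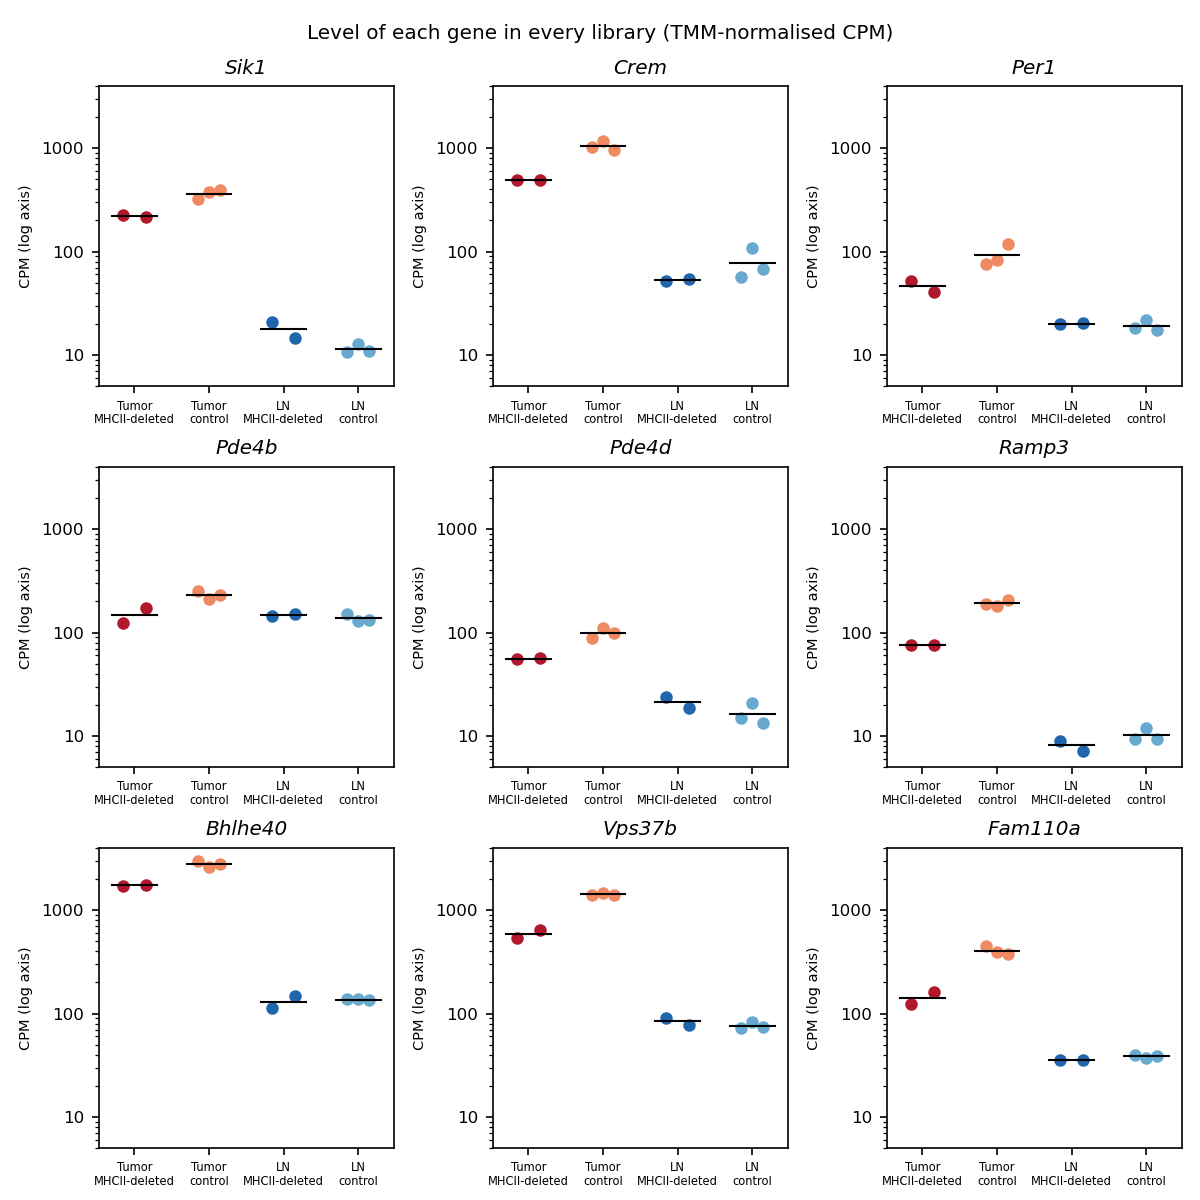
Level of each of the 9 genes in every library (CPM, log axis, same range in each panel); points are libraries and lines are group means, with MHCII-deleted left of control within tumor and within LN. All genes except Pde4b lie higher in every tumor library than in any LN library, and Pde4b is above the rest in control tumor libraries only.

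Divided by the length of all annotated exons of a gene, levels can be compared only roughly between genes. Where the isoforms in use hold fewer exons, the value is too low, and isoforms were not separated. Reads gained or lost where Vps37b overlaps Hip1r would also move its place in the order. Bhlhe40 was highest in tumor, at 372 ± 7.36 CPM per kilobase of exon (SD) in MHCII-deleted libraries (n = 2 throughout) and 595 ± 41.8 in control libraries (n = 3 throughout). Vps37b came next, at 212 ± 28.3 CPM per kilobase in MHCII-deleted and 509 ± 10.3 in control tumor libraries. Crem, at 83.1 ± 0.168 CPM per kilobase in MHCII-deleted and 180 ± 18.3 in control tumor libraries, and Fam110a, at 64.4 ± 12.7 in MHCII-deleted and 184 ± 16.0 in control tumor libraries, came after them. They did not differ from each other beyond their spread in control tumor libraries, and Crem was the higher in MHCII-deleted ones. Ramp3 (54.8 ± 0.484 in MHCII-deleted and 139 ± 8.88 in control) and Sik1 (43.3 ± 1.24 in MHCII-deleted and 70.7 ± 7.56 in control) followed. The lowest were Pde4b (13.9 ± 3.24 in MHCII-deleted and 22.1 ± 2.02 in control), Per1 (8.17 ± 1.35 in MHCII-deleted and 16.5 ± 4.12 in control) and Pde4d (4.66 ± 0.114 in MHCII-deleted and 8.24 ± 0.921 CPM per kilobase in control tumor libraries). The LN order was different: Vps37b and Bhlhe40 were level, at 30.1 ± 3.39 and 27.8 ± 4.95 CPM per kilobase in MHCII-deleted LN libraries and at 27.4 ± 2.07 and 29.0 ± 0.443 in control LN libraries. Pde4b, among the 3 lowest in tumor, ranked level with Crem in control LN libraries, at 13.0 ± 1.12 against 13.1 ± 4.52 CPM per kilobase. Sik1 was next to last in control LN libraries, at 2.23 ± 0.219 CPM per kilobase. In MHCII-deleted LN libraries it was level with Per1, at 3.47 ± 0.864 against 3.56 ± 0.0357 CPM per kilobase.

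Promoter sequence was looked at because most members had like profiles over the 10 libraries. RefSeq promoters (build GRCm38.p6) were matched for 5 of the 9 genes, Per1, Pde4b, Pde4d, Ramp3 and Fam110a, with 11 transcription starts in all, and not for Sik1, Crem, Bhlhe40 and Vps37b. In the 250 bases before each start, both strands were searched for the cAMP response element TGACGTCA, its shorter core TGACG (which the full element contains), the E-box CACGTG, which clock factors and Bhlhe40 bind, and the AP-1 motif TGANTCA. The full element was found at 0 of these 11 starts and at 1.55% of 32851 starts genome-wide. The core TGACG was found at 5 of 11 starts, in Per1, Pde4b and Fam110a, and at 17.8% of all starts. Starts of 1 gene are not independent. Counted by gene, the core was found in 3 of the 5 matched genes and in 19.8% of all genes with a promoter, and 5 genes are few. The 5 genes have 11 starts, against 32851 starts in 27025 genes genome-wide, so they offered more places per gene for a match. The E-box was found at 1 of 11 starts, in Per1, and at 6.02% of all starts, and AP-1 at 0 of 11, against 6.75% of all starts. A match is a stretch of letters and not evidence of binding. Shown are the windows of Per1, which holds both a core and an E-box, and that of Fam110a with 2 cores, read 5′ to 3′ on the strand of the gene, with the core (TGACG, or CGTCA where it lies on the opposite strand) and the E-box in capitals. Per1 start 1 (chr11:69098699-69098948, plus strand) has its core 246 bases and its E-box 166 bases before the start, Per1 start 2 (chr11:69099902-69100151, plus strand) has a core 132 bases before, and Fam110a start 2 (chr2:151973982-151974231, minus strand) has cores 175 and 89 bases before. The bases just after Per1 start 1 lie in a GENCODE transcript of the gene. Those after Per1 start 2 and Fam110a start 2 were not found in one, so these 2 starts are less certain.
Per1 start 1: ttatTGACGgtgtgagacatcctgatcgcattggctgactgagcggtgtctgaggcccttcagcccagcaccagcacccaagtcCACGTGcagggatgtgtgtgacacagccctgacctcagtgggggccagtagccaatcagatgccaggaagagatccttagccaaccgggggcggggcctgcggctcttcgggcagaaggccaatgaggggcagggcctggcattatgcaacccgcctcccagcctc
Per1 start 2: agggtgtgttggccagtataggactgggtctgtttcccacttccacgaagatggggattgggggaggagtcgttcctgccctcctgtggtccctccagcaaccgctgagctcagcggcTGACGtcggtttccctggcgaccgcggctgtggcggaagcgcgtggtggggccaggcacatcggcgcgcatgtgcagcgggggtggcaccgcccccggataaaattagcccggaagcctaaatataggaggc
Fam110a start 2: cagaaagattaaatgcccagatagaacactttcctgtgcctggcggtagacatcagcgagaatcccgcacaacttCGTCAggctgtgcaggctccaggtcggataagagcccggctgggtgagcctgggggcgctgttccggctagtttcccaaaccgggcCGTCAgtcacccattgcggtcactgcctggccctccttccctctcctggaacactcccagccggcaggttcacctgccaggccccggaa

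Libraries of tumor Tregs and of LN Tregs were compared within each genotype. Melanoma genes summed to 14200 to 17800 CPM in MHCII-deleted and 3560 to 7070 CPM in control tumor libraries. In LN libraries they summed to 13.1 to 16.3 CPM in MHCII-deleted and 6.19 to 13.1 CPM in control mice. How much of a member's tumor level came from cells other than Tregs was not tested, in either genotype or with either scaling. Per total RNA 8 of the 9 genes were higher in tumor than in LN in MHCII-deleted mice, Pde4b being the exception, and all 9 were higher in control mice. In MHCII-deleted mice Bhlhe40 had the largest difference, with a log2 fold change of 3.74 ± 0.13 (SE), or 13.4-fold, then Sik1 at 3.64 ± 0.19 (12.5-fold), Ramp3 at 3.23 ± 0.18 (9.36-fold) and Crem at 3.20 ± 0.26 (9.18-fold). Vps37b was 7.05-fold, Fam110a 3.99-fold, Pde4d 2.62-fold and Per1 2.30-fold higher. Pde4b differed by -0.01 ± 0.16 on the log2 scale, with overlapping groups. As background, edgeR called 24.3% of 13920 tested genes higher in this comparison at an adjusted p of 0.05 (20.1% lower, 44.4% in either direction). The median log2 difference was 2.82 over the 9 genes and 0.07 over all tested genes. Per pan-T cell counts these medians were 4.04 and 1.30, the Pde4b difference was 1.20 ± 0.15, and all 9 genes were called higher, as were 65% of all tested genes with that scaling.

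The tumor over LN differences of control mice were larger per total RNA for every member, a contrast that the interaction term given further on covers. Sik1 led, at 4.99 ± 0.17 on the log2 scale, a 31.7-fold difference. Bhlhe40 at 4.36 ± 0.11, Ramp3 at 4.23 ± 0.15 and Vps37b at 4.22 ± 0.11 were 18.6-fold to 20.5-fold higher. Crem (3.78 ± 0.22) and Fam110a (3.41 ± 0.13) followed with 13.7-fold and 10.6-fold differences, then Pde4d at 2.60 ± 0.19 and Per1 at 2.28 ± 0.19. Pde4b differed least, at 0.76 ± 0.13, or 1.69-fold. The share of all tested genes called higher in tumor was 22.8% (16.1% lower, 38.9% in either direction). The median was 3.78 over the 9 genes and 0.08 over all tested genes, against 3.88 and 0.17 per pan-T cell counts, and with that scaling too all 9 were called higher, against 24% of all tested genes. Both genotypes' differences rest on the same tumor and LN libraries as the deletion comparisons below, so the values are not independent of each other.

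**Figure D3:**
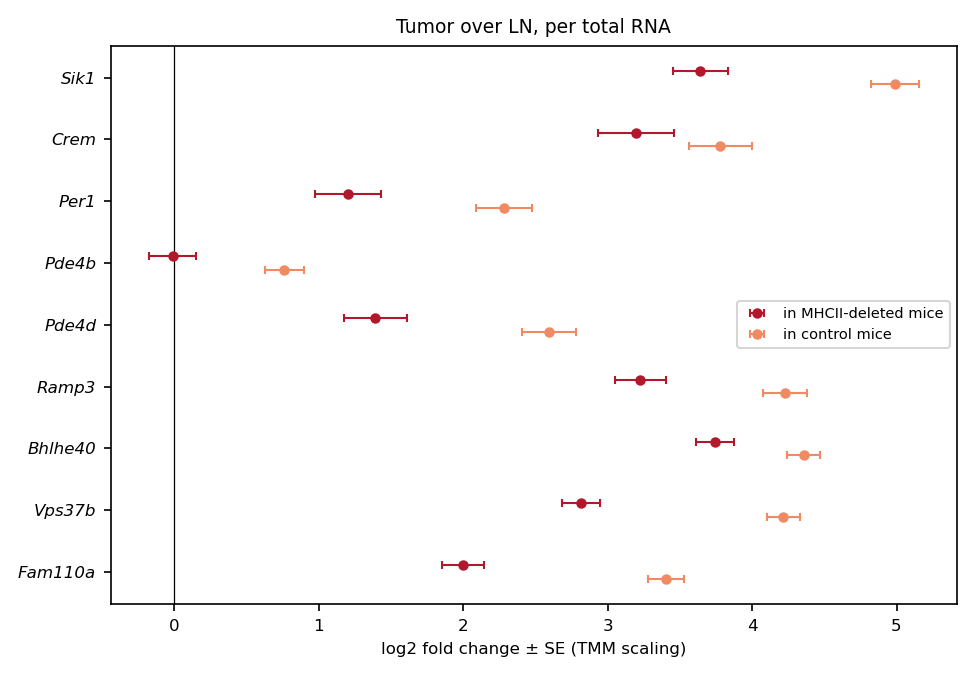
Log2 fold change of tumor over LN for each gene in MHCII-deleted (red) and control (orange) mice, per total RNA, with bars of ± 1 SE. Values run from -0.01 to 3.74 in MHCII-deleted mice and from 0.76 to 4.99 in control mice, with Pde4b at the low end of both; per pan-T cell counts Pde4b in MHCII-deleted mice is at 1.20.

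The deletion comparison within tumor asked how these genes differ when lymphatic vessels lack MHCII. Per total RNA all 9 genes were lower in MHCII-deleted than in control tumor libraries, and no gene's groups overlapped, as held for 53.6% of all tested genes, but per pan-T cell counts 6 of the 9 turned to the other sign. Fam110a had the largest difference, with a log2 fold change of -1.52 ± 0.13 (SE), or 0.349-fold. Ramp3 (-1.34 ± 0.15), Vps37b (-1.26 ± 0.12), Crem (-1.11 ± 0.23) and Per1 (-1.01 ± 0.21) were at 0.395-fold to 0.496-fold of control. Pde4d (-0.82 ± 0.20), Sik1 (-0.71 ± 0.16), Bhlhe40 (-0.68 ± 0.11) and Pde4b (-0.67 ± 0.15) were at 0.565-fold to 0.631-fold. At an adjusted p of 0.05, edgeR called 13.7% of all tested genes lower and 15% higher in this comparison (28.7% in all). Treg markers moved with the members: all 6 were called lower per total RNA, between -1.06 (Cd4) and -1.37 (Tnfrsf18) on the log2 scale, with Foxp3 at -1.09, and none was called per pan-T cell counts. Summed pan-T cell genes (5860 to 7040 CPM in MHCII-deleted, against 13800 to 14400 CPM in control tumor libraries) and melanoma genes (14200 to 17800 CPM, against 3560 to 7070 CPM in control tumor libraries) moved with these differences, and their part in them was not tested beyond the scaling that follows.

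Expressed per 1000 pan-T cell counts, the members split. Bhlhe40 had 294 and 252 counts per 1000 pan-T cell counts in MHCII-deleted tumor libraries, against 208.5, 187 and 203.5 in control tumor libraries. Sik1 had 38.7 and 30.9 in MHCII-deleted, against 22.2, 27.0 and 28.5 in control libraries, and Pde4b had 20.9 and 24.3 in MHCII-deleted, against 17.7, 15.2 and 16.9 in control libraries. On this scale these 3 genes lay higher in both MHCII-deleted tumor libraries than in any control tumor library, as did Pde4d with 9.38 and 8.08 in MHCII-deleted, against 6.10, 7.88 and 7.22 in control libraries. Fam110a went the other way, with 20.9 and 23.0 per 1000 pan-T cell counts in MHCII-deleted, against 31.1, 28.4 and 27.4 in control tumor libraries. Vps37b, with 91.5 and 92.0 in MHCII-deleted, against 98.4, 104 and 101.3 in control libraries, and Ramp3, with 12.8 and 10.8 in MHCII-deleted, against 13.2, 13.0 and 14.9 in control libraries, also lay below without overlap. Such separation was common on this scale, as 77.9% of all tested genes had tumor groups without overlap. A gene's reads from other cells stay in its count on this scale, so a value is not a level per T cell. The part of such reads in the members' values was not tested. Crem and Per1 overlapped: Crem had 83.7 and 69.4 per 1000 pan-T cell counts in MHCII-deleted, against 72.0, 84.5 and 70.0 in control libraries, and Per1 had 8.77 and 5.77 in MHCII-deleted, against 5.33, 5.90 and 8.65 in control libraries.

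With this scaling in the same fit, the log2 fold change was 0.45 ± 0.12 for Bhlhe40, 0.45 ± 0.13 for Pde4b and 0.42 ± 0.17 for Sik1, and -0.40 ± 0.11 for Fam110a, and edgeR called these 4 of the 9. Of all tested genes, 67.5% were called higher and 0.33% lower with this scaling, so 3 of 9 called higher is a smaller share than in the background. Pde4d (0.30 ± 0.20), Per1 (0.13 ± 0.24), Crem (0.02 ± 0.22), Vps37b (-0.14 ± 0.10) and Ramp3 (-0.21 ± 0.16) were not called. The scaling moved the median of all tested genes to 1.23, against 0.10 with TMM, and the median of the 9 genes to 0.13, against -1.01. The median of the 9 lay below that of all tested genes by more than 1 on the log2 scale, with melanoma genes in that background. A change of library sizes moves all genes by nearly the same amount. The gap between the medians is therefore nearly the same with either scaling by construction, and the 2 scalings are no separate evidence for it. Leaving out the second MHCII-deleted tumor library, the one with the high GC index, all 9 genes were again called lower per total RNA, with Fam110a at -1.73, Vps37b at -1.41, Ramp3 at -1.35, Crem at -1.11, Pde4b at -0.92, Per1 and Pde4d each at -0.85, Bhlhe40 at -0.70 and Sik1 at -0.68. Without the other MHCII-deleted tumor library 7 were called, as Pde4b (-0.45) and Pde4d (-0.80) were not.

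**Figure D4:**
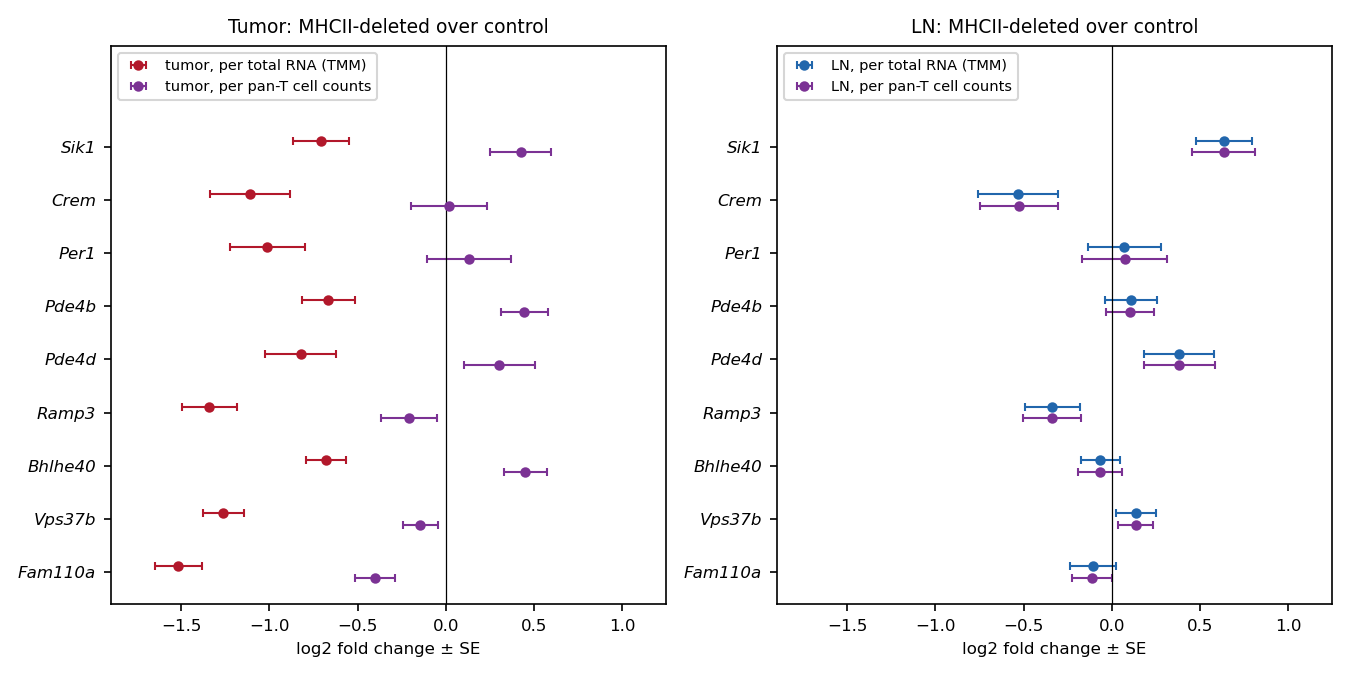
Log2 fold change of MHCII-deleted over control for each gene in tumor (left) and LN (right), per total RNA and per pan-T cell counts (purple), with bars of ± 1 SE. In tumor all 9 lie below 0 per total RNA (-1.52 to -0.67), whereas per pan-T cell counts they run from -0.40 to 0.45; in LN both scalings give nearly the same values (-0.53 to 0.64).

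In LN most of the 9 genes of MHCII-deleted mice lay within or near the range of control mice. By edgeR 0 of 9 were called, with 2 at an unadjusted p under 0.05, while DESeq2 called Sik1 and limma-voom called 0. As background, 1.11% of all tested genes were called (154 of 13920), 1.07% higher and 0.0359% lower. Sik1 had the largest difference, at 0.64 ± 0.16 on the log2 scale, or 1.56-fold, and DESeq2 gave it 0.60. Crem lay at -0.53 ± 0.23, but its control libraries spread from 56.4 to 107 CPM. Pde4d (0.38 ± 0.20), Vps37b (0.14 ± 0.11), Pde4b (0.11 ± 0.15) and Per1 (0.07 ± 0.21) had positive values with overlapping groups. Ramp3 (-0.34 ± 0.16), Fam110a (-0.11 ± 0.13) and Bhlhe40 (-0.06 ± 0.11) had negative values, and of these only Bhlhe40 had overlapping groups. In all, 4 of 9 genes (Sik1, Crem, Ramp3 and Fam110a) had groups that did not overlap, as did 27.3% of all tested genes. The median log2 difference in LN was 0.07 over the 9 genes and 0 over all tested genes, and both were the same to 2 decimals per pan-T cell counts. GC-rich genes also moved with genotype in LN, where the median of the 1458 genes was 0.59 in MHCII-deleted over control libraries. With the GC index as a covariate, an alternative chosen after seeing the data, the LN values of Pde4b (-0.32) and Vps37b (-0.08) changed sign.

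Set against each other, the tumor and LN deletion differences were unequal for most members per total RNA. The difference of the 2 differences (tumor minus LN) was -1.41 ± 0.18 for Fam110a, -1.40 ± 0.16 for Vps37b, -1.35 ± 0.23 for Sik1, -1.21 ± 0.28 for Pde4d, -1.08 ± 0.29 for Per1, -1.002 ± 0.21 for Ramp3, -0.77 ± 0.21 for Pde4b and -0.61 ± 0.16 for Bhlhe40 on the log2 scale. In edgeR's interaction term these 8 were called and Crem (-0.58 ± 0.31) was not; 6.57% of all tested genes were called lower and 4.14% higher (10.7% in either direction). With RLE size factors, limma-voom or the replicate block 5 were called, without Per1, Pde4b and Bhlhe40, and leaving out single libraries gave 3 to 7. All 6 Treg markers were called lower in the same term, among them Foxp3 at -0.94 ± 0.16 and Il2ra at -1.34 ± 0.22, and their part in the members' values was not tested. With pan-T cell scaling none of these markers was called lower, and Ctla4 was called higher, at 0.58 ± 0.135. Ctla4 alone of them was also called in LN by edgeR, lower with deletion at -0.64 ± 0.11 per total RNA. Per pan-T cell counts only Bhlhe40 of the 9 was called, at 0.52 ± 0.18, while 46.1% of all tested genes were called higher, and 5 members (Crem, Per1, Pde4b, Ramp3 and Bhlhe40) had a positive sign. The median of the 9 was -1.08 and of all tested genes -0.01 per total RNA, against 0.06 and 1.12 per pan-T cell counts.

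Other genes of the cAMP pathway were counted by list. Their counts stand beside the shares of all tested genes: in the tumor deletion comparison 15% were called higher and 13.7% lower per total RNA, and 67.5% higher and 0.33% lower per pan-T cell counts. Tumor over LN in MHCII-deleted mice, 24.3% were called higher and 20.1% lower per total RNA, and 65% higher and 2.22% lower per pan-T cell counts. For tumor over LN in control mice these shares were 22.8% and 16.1% per total RNA, and 24% and 10.2% per pan-T cell counts. In the LN deletion comparison 1.07% were called higher and 0.0359% lower per total RNA. Upstream, of 15 genes for receptors that raise cAMP and their G protein, 12 were tested. In MHCII-deleted over control tumor libraries, 7 of them fell and 1 rose per total RNA, whereas 0 fell and 3 rose per pan-T cell counts. The falls included Adora2a, an adenosine receptor, with 56.5 ± 9.61 CPM in MHCII-deleted (SD, n = 2) and 137 ± 21.3 CPM in control tumor libraries (n = 3), a log2 fold change of -1.28 ± 0.18. Ramp1, the relative of Ramp3 that makes a receptor for calcitonin gene-related peptide, fell by 1.66 ± 0.26, and the prostaglandin E2 receptors Ptger4 and Ptger2 fell by 1.11 ± 0.17 and 0.83 ± 0.15 on the log2 scale. Per pan-T cell counts Adora2a (-0.14), Ramp1 (-0.53), Ptger4 (0.00) and Ptger2 (0.28) were not called. Tumor over LN, 2 receptor genes rose and 5 fell in MHCII-deleted mice per total RNA (4 rose and 2 fell per pan-T cell counts; 4 genes in all were called per total RNA without the second MHCII-deleted LN library), with Vipr1, a receptor for vasoactive intestinal peptide, at -3.57 ± 0.28 and Ptger4 at -1.73 ± 0.19 on the log2 scale. In control mice 5 rose and 2 fell: Adora2a rose by 1.05 ± 0.16 and Ramp1 by 0.98 ± 0.22, while Vipr1 fell by 1.98 ± 0.21.

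The enzymes between receptor and nucleus moved less evenly. Among 9 adenylyl cyclases, which make cAMP, 7 were tested, and in the tumor deletion comparison 1 fell per total RNA, Adcy7 at -0.71 ± 0.13, which was called higher per pan-T cell counts, at 0.41 ± 0.14. Tumor over LN in control mice, edgeR called 0 of the 7, with 1 at an unadjusted p under 0.05, and DESeq2 and limma-voom called 1 each. Of 11 genes of protein kinase A and Epac, the other cAMP sensor, 6 rose and 1 fell in MHCII-deleted over control tumor libraries per total RNA (9 rose and 0 fell per pan-T cell counts). Rapgef4, an Epac gene, rose by 2.54 ± 0.33 with 39.0 ± 13.2 CPM in MHCII-deleted (SD, n = 2) and 6.69 ± 1.58 CPM in control tumor libraries (n = 3). Pkig, an inhibitor of protein kinase A, rose by 1.17 ± 0.21 and the regulatory subunit gene Prkar2b by 2.20 ± 0.48, in the direction of the melanoma genes, whose part in these rises was not tested. Per pan-T cell counts these 3 were also called higher, Rapgef4 at 3.70, Pkig at 2.32 and Prkar2b at 3.32. Prkar1a, the abundant regulatory subunit, fell by 0.43 ± 0.08 per total RNA and was called higher per pan-T cell counts, at 0.70 ± 0.10. Of 10 CREB factors, coactivators and SIK kinases, 3 fell per total RNA in the tumor deletion comparison (Crebbp at -0.71 ± 0.15, Crtc2 at -0.45 ± 0.11 and Creb3 at -0.42 ± 0.10), whereas per pan-T cell counts all 10 were called higher, as were 67.5% of all tested genes. In tumor over LN in MHCII-deleted mice 8 of the 10 fell per total RNA by edgeR, but 3 each by DESeq2 and limma-voom, and 4 to 9 were called without single libraries (4 or 5 without any 1 of the MHCII-deleted libraries or LN control library 3), whereas 7 were called higher per pan-T cell counts. In control mice edgeR called 3 of the 10 lower (Atf1, Crebbp and Crtc1) and DESeq2 and limma-voom 2 each. Without single libraries that count was 0 to 4, with 0 on leaving out control tumor library 1 or control LN library 2 or 3 and 1 on leaving out control tumor library 2, MHCII-deleted LN library 2 or control LN library 1, and per pan-T cell counts 0 were called by edgeR.

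Phosphodiesterases other than the 2 members (13 of 14 tested) had 3 genes that rose and 1 that fell in the tumor deletion comparison per total RNA (7 rose and 1 fell per pan-T cell counts), against 28.7% of all tested genes called per total RNA and 67.5% called higher per pan-T cell counts. Pde11a rose by 1.91 ± 0.26, with 71.8 ± 11.1 CPM in MHCII-deleted (SD, n = 2) and 19.1 ± 2.89 CPM in control tumor libraries (n = 3), again in the direction of the melanoma genes, and by 3.05 per pan-T cell counts. Pde1b was called at 2.37 ± 0.77 (3.55 per pan-T cell counts), but 8 of the 10 omissions of single libraries ended its call per total RNA, all except those of MHCII-deleted tumor library 2 and control LN library 2, with values of 1.70 to 2.83 and edgeR's adjusted p up to 0.286. Over these omissions 1 to 4 of the phosphodiesterases were called, with 1 on leaving out control tumor library 2 or 3 and 2 on leaving out MHCII-deleted tumor library 2, either MHCII-deleted LN library or control LN library 3. Tumor over LN, 6 rose and 0 fell in MHCII-deleted mice (3 called without MHCII-deleted LN library 2), and 5 rose and 0 fell in control mice (3 called without control tumor library 2).

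Downstream, 18 other genes known as CREB targets were counted, among them Nr4a1 to Nr4a3, Areg and Rgs2. CREB activity was not measured, and which signal set the levels of these genes was not tested. The labels describe tissue digestion for tumors only, and its part in the tumor over LN differences cannot be told apart from that of tissue. Tumor over LN, 14 of 18 rose in MHCII-deleted mice (median log2 difference 1.89) and 17 of 18 in control mice (median 3.30). The shares of all tested genes called higher were 24.3% in MHCII-deleted and 22.8% in control mice. Areg, a growth factor of tissue Tregs, rose by 5.63 ± 0.23 in MHCII-deleted and 6.42 ± 0.19 in control mice, and Rgs2, which limits G protein signals, by 3.64 ± 0.19 in MHCII-deleted and 5.09 ± 0.17 in control mice. In the tumor deletion comparison 12 fell and 1 rose per total RNA (median -1.13), whereas 0 fell and 4 rose per pan-T cell counts (median -0.02). Areg fell by 1.44 ± 0.17, with 108 ± 9.62 CPM in MHCII-deleted (SD, n = 2) and 294 ± 30.8 CPM in control tumor libraries (n = 3); Junb fell by 1.34 ± 0.17 and Tgif1 by 1.17 ± 0.17, and none of the 3 was called per pan-T cell counts. The gene that rose was Ppargc1a, a coactivator of mitochondrial genes that melanoma cells can also express, with 212.5 ± 40.1 CPM in MHCII-deleted (SD, n = 2) and 42.5 ± 5.20 CPM in control tumor libraries (n = 3), a log2 fold change of 2.32 ± 0.23 (3.47 per pan-T cell counts). In LN, 1 of the 18 rose with deletion: Dusp1, a MAP kinase phosphatase, with 278.5 ± 10.3 CPM in MHCII-deleted (SD, n = 2) and 125 ± 39.0 CPM in control LN libraries (n = 3), at 1.15 ± 0.22 on the log2 scale and an adjusted p of 0.0497 in edgeR. The share of all tested genes called higher in that comparison was 1.07%. The Dusp1 call was lost on leaving out any of the 5 LN libraries or control tumor library 2 or 3, with edgeR's adjusted p between 0.0152 and 0.252 over all 10 omissions. Each other list had 0 genes called in LN by edgeR, with 1 to 4 at an unadjusted p under 0.05, 0 to 2 called by DESeq2 and 1 or 2 by limma-voom.

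The clock genes and the relatives of Vps37b and Fam110a are given next. Of 14 clock genes other than Per1 and Bhlhe40 (Per2 is also in the CREB target list), 3 rose and 1 fell in MHCII-deleted over control tumor libraries per total RNA, and 10 rose and 0 fell per pan-T cell counts, both near the shares of all tested genes (28.7% called per total RNA, 67.5% higher per pan-T cell counts). Arntl, the activator partner of Clock, fell by 0.83 ± 0.17, while Clock rose by 0.77 ± 0.21, and per pan-T cell counts Clock was called higher and Arntl was not called (0.30 ± 0.19). Bhlhe41, the closest relative of Bhlhe40, was called at 2.14 ± 0.65 (3.21 per pan-T cell counts), with 33.4 ± 19.8 CPM in MHCII-deleted (SD, n = 2) and 7.61 ± 5.10 CPM in control tumor libraries (n = 3), opposite in sign to Bhlhe40 per total RNA. That call was lost on leaving out MHCII-deleted tumor library 2, control tumor library 1 or 2 or control LN library 1 or 3, with values of 1.35 to 2.79 and edgeR's adjusted p up to 0.275 over all 10 omissions. Tumor over LN, Bhlhe41 rose as Bhlhe40 did, by 7.88 in MHCII-deleted and 8.31 in control mice on the log2 scale, against mean LN levels of 0.143 CPM in MHCII-deleted and 0.0213 CPM in control mice, near the floor of 3 counts, so the size of these values is uncertain. Tumor over LN in control mice, 6 clock genes rose and 1 fell, with Hlf at 2.74 ± 0.33 and Tef at 1.03 ± 0.23. Of 9 ESCRT-I and FAM110 relatives, 0 rose and 1 (Vps28, at -0.54 ± 0.11) fell in the tumor deletion comparison per total RNA, whereas 6 rose, Vps28 among them, per pan-T cell counts. Tumor over LN in control mice 4 of them rose, among them Vps37c at 0.74 ± 0.13 and Mvb12a at 0.66 ± 0.10, both well under the 4.22 ± 0.11 of Vps37b. Fam110c, a relative of Fam110a, was also called, with 4.53 ± 0.063 CPM (SD, n = 3) in control tumor libraries and 0 counts in every LN library.

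**Figure D5:**
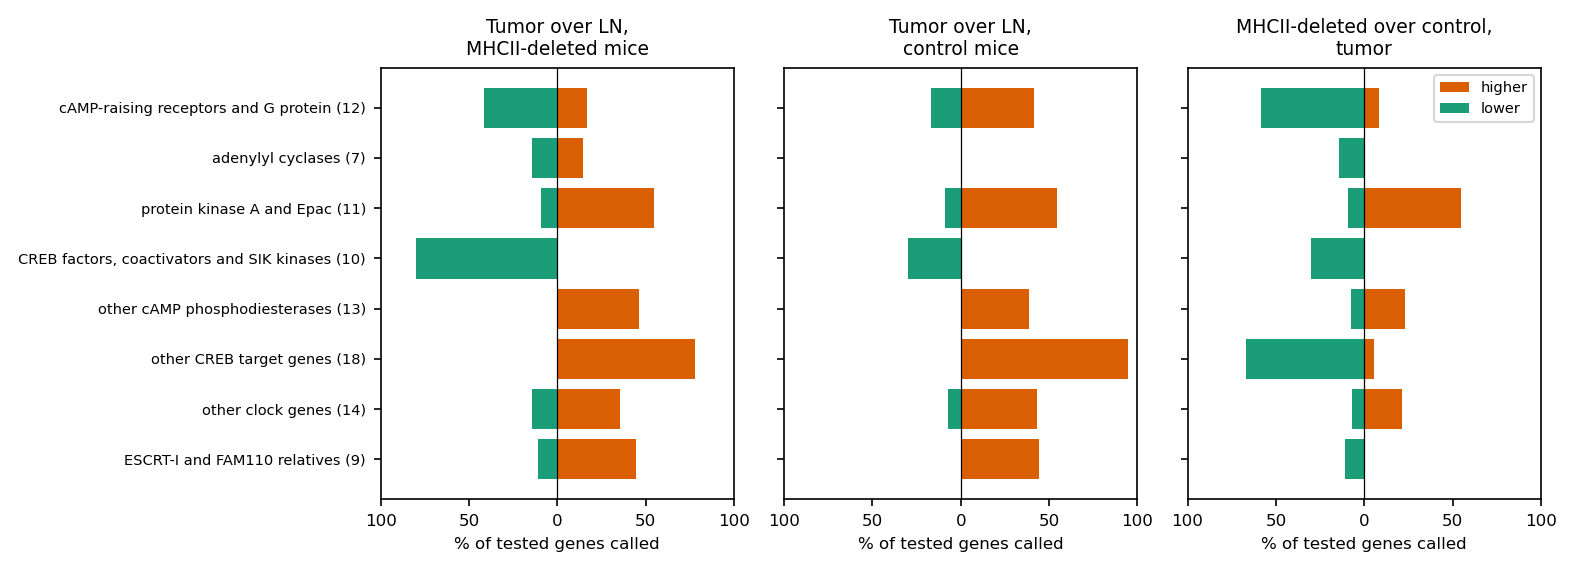
Share of tested genes called higher (right of 0) or lower (left of 0) in each pathway list, per total RNA; the number tested is beside each list name. CREB target genes have 14 and 17 of 18 higher in tumor over LN in MHCII-deleted and control mice and 12 of 18 lower in MHCII-deleted over control tumor libraries, where pan-T cell scaling leaves 0 lower.

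The members' own profiles were compared by the root mean square difference of centred log2 CPM over the 10 libraries, where a smaller value means more alike profiles; 8687 genes with a mean of at least 10 CPM were compared. Of the members, Ramp3 and Vps37b were most alike (0.21 on the log2 scale), then Crem and Ramp3 (0.24) and Per1 and Pde4d (0.28). Pde4b was the outlying profile: its nearest member, Per1, was at 0.75, whereas outside the set Spata2 and Nucb1 were at 0.11 and 0.12. Fam110a was at 0.44 from Vps37b, its nearest member, and nearer to Dusp14 (0.20), Ell2 (0.23) and Tgif1 (0.23). Leaving the members themselves aside, Hilpda was among the 3 nearest genes of 4 members, at 0.24 from Vps37b, 0.25 from Bhlhe40, 0.27 from Ramp3 and 0.28 from Crem. Nfkbiz was likewise near Ramp3 (0.26), Bhlhe40 (0.26) and Vps37b (0.27). Outside the set Tnfaip3 was the nearest gene to both Bhlhe40 (0.23) and Sik1 (0.31), with Rgs2 (0.31) and Nr4a2 (0.36) next for Sik1. Also outside the set, Dgat1 was nearest to Crem (0.25), Gpr132 to Per1 (0.19), Ets2 to Pde4d (0.17), Nfkbiz to Ramp3 and Hilpda to Vps37b. The 10 libraries fall into 4 groups, and all genes compared share those libraries and their pan-T cell content, so these values describe likeness and nothing more.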

How the data were processed

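RNA of 10 Treg libraries was made with the SMARTer Ultra Low RNA kit and Nextera XT and read as single reads of 50 bases, per the labels' protocols. The deposited values are raw counts, 1 row per Ensembl gene. Reads were handled with CASAVA 1.8.2, STAR 2.4 and featureCounts 1.4.6 on GRCm38, per the submitters' processing notes, and the annotation release and strand setting are not given in the sources used here. Symbols, positions and exon lengths came from GENCODE M21 (GRCm38), and promoters from RefSeq (GRCm38.p6). In R 4.3.3, edgeR 4.0.16 (filterByExpr with a minimum count of 10, TMM, robust quasi-likelihood fit of 4 group means over all 10 libraries) gave log2 fold changes, and Benjamini-Hochberg adjusted p-values under 0.05 over 13920 genes were called. The SE is the log2 fold change divided by the square root of F. Pan-T cell scaling used the summed counts of 20 T cell genes as library size. The members, the lists, the rule for named genes (all 9 members, up to 4 called genes per pathway list and comparison by p, and the 3 most alike genes per member) and the tests were chosen with earlier results of these data known. Alternatives were RLE size factors, DESeq2 1.42.0, limma-voom 3.58.1 with sample weights, a fit without the filter, a spread estimated without robustness, fits of only the compared groups, pan-T cell scaling, a replicate block and leaving out each library; the GC index covariate was added after the data had been seen. No source says that libraries came from separate mice, so p-values measure the spread between these libraries, which may be technical. Replicate libraries differed by more than sampling noise. Floors cover counting error only, since amplified reads carry no molecular identifiers. The fit was tested on simulated data with known changes.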

Additional observations from a re-analysis of the deposited data

Results flagged for a closer look

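The deletion difference of 8 of the 9 genes was not the same in tumor and LN by the interaction term of edgeR's quasi-likelihood fit (Benjamini-Hochberg adjusted p of 0.00316 to 0.044 over all genes tested). RLE size factors, limma-voom and the replicate block gave 5 each, without Per1, Pde4b and Bhlhe40, and leaving out single libraries gave 3 to 7. The members were chosen with such results in view, so these values are not independent evidence. Of all tested genes, 10.7% were called in this term per total RNA (6.57% lower). The Treg markers were all called lower in it as well, with Foxp3 at -0.94 on the log2 scale. Per total RNA, the tumor difference minus the LN difference was -1.41 for Fam110a, -1.40 for Vps37b, -1.35 for Sik1, -1.21 for Pde4d, -1.08 for Per1, -1.002 for Ramp3, -0.77 for Pde4b and -0.61 for Bhlhe40 on the log2 scale. Of the 8, Sik1 alone had groups that did not overlap in both tissues with opposite signs, at -0.71 in tumor and 0.64 in LN per total RNA. Per pan-T cell counts Sik1 was positive in both tissues, at 0.42 in tumor and 0.64 in LN. Scaled to pan-T cell counts, Bhlhe40 was the 1 member called, with a positive difference of 0.52, while 46.1% of all tested genes were called higher.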

How the results depend on the processing

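For the deletion comparison in tumor, 3999 genes were called (52.3% higher), with 2519 (45.3% higher) from only the groups compared, 9438 (99.5% higher) with pan-T cell scaling, 2609 with the GC index as covariate and 2745 to 3695 without single libraries. Of the 9 members, 4 were called with pan-T cell scaling, 5 with the GC index (not Sik1, Crem, Per1 and Pde4d) and 7 to 9 without single libraries. Pan-T cell scaling turned the sign in tumor for Sik1 (0.42), Crem (0.0201), Per1 (0.13), Pde4b (0.45), Pde4d (0.30), Bhlhe40 (0.45), Adcy7 (0.41), Ptger4 (0.00415), Ptger2 (0.28), Crebbp (0.42), Crtc2 (0.68), Creb3 (0.71), Vps28 (0.59), Arntl (0.30) and Prkar1a (0.70). In LN, 154 genes were called, with 23 by RLE size factors, 659 by DESeq2, 782 by limma-voom, 806 from only the groups compared, 396 with pan-T cell scaling, 0 with the replicate block (1140 at an unadjusted p under 0.05), 0 with the GC index (1059 unadjusted) and 0 to 611 without single libraries (0 without any LN library, 611 and 592 without the first or second MHCII-deleted tumor library). DESeq2 called 1 member, Sik1. The GC index turned the LN sign of Pde4b (-0.32) and Vps37b (-0.0825), and LN Bhlhe40 lay between -0.26 and 0.11 without single libraries. Tumor over LN in MHCII-deleted mice, 6175 genes were called (54.8% higher) and 9354 (96.7% higher) with pan-T cell scaling. Pde4b there was 0.0933 by RLE, 0.0934 by DESeq2, 0.00445 from only the groups compared, 1.20 with pan-T cell scaling and -0.27 to 0.21 without single libraries, and pan-T cell scaling turned Adcy7 (0.71), Ptger2 (0.0220), Crebbp (0.12), Ep300 (0.30), Creb3 (0.86), Vps28 (0.89) and Prkacb (0.42). In control mice 5409 were called, 2918 with the GC index (Pde4b at 0.34 was not) and 4157 to 5671 without single libraries. For the difference of the deletion differences, 1491 were called, 2487 by DESeq2, 6432 with pan-T cell scaling and 527 to 2281 without single libraries; of the members 8 were called, 5 each by RLE, limma-voom and the replicate block (not Per1, Pde4b and Bhlhe40), 1 with pan-T cell scaling and 3 to 7 without single libraries. Pan-T cell scaling turned Crem (0.54), Per1 (0.0591), Pde4b (0.34), Ramp3 (0.13) and Bhlhe40 (0.52) there. The cause of these changes was not tested, apart from the fewer libraries where libraries were left out.

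The labels do not say whether replicate numbers pair tumor with LN libraries. In control mice same-numbered libraries correlated at 0.0203, 0.0385 and 0.0462 in their deviations from the group means. Differently numbered tumor and LN libraries of control mice lay between -0.034 and -0.00343. All these values are small, and they do not settle whether the numbers mark pairs. The replicate block changed no other call of a member, and it ended the LN call of Dusp1. Groups of 2 and 3 libraries limit all of this, since 1 library can move a count of calls several times over. Depth does not limit the members, whose smallest count was 222. No source used here gives the number of mice per library. Pan-T cell scaling assumes that Tregs of all groups hold the same amount of these T cell transcripts. It also leaves reads of other cells in a gene's count, and neither point was tested.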
